A study of Mus musculus with 4 samples.

Results

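The platelet-derived growth factor (PDGF) system of cultured mouse astrocytes was followed after knockdown of Phf8, a histone demethylase gene. Its 7 genes were the 4 ligand genes Pdgfa, Pdgfb, Pdgfc and Pdgfd, the receptor genes Pdgfra and Pdgfrb, and the receptor-like gene Pdgfrl. They were taken by symbol from the 55421 genes counted in each library, and the family was chosen by its measured read counts, because Pdgfb was nearly lost and Pdgfrb was higher in the one contrast that the study holds. Their differences between the groups are therefore given as a description without a test. Astrocytes of C57BL/6J origin, differentiated from neural stem cells in medium with 10% fetal bovine serum, carried a lentivirus with either a short hairpin RNA (shRNA) against Phf8 (2 libraries) or a control shRNA (2 libraries). Both groups thus shared the serum medium and the infection. The sources used here do not give the hairpin sequences or their number. Total RNA was depleted of ribosomal RNA and sequenced with a stranded kit.

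PDGFs are secreted dimers that bind and dimerise receptor tyrosine kinases, which then recruit phosphatidylinositol 3-kinase, phospholipase C-gamma, Src family kinases and adaptors of the Ras pathway. PDGF-A and PDGF-B are activated inside the cell by furin-like proteases, whereas PDGF-C and PDGF-D are secreted with a CUB domain that has to be cut off outside it. PDGFRA responds to PDGF-A, PDGF-B and PDGF-C, and PDGFRB to PDGF-B and PDGF-D. In brain, PDGF-A drives the expansion of oligodendrocyte precursors, which carry PDGFRA, and endothelial PDGF-B recruits pericytes, which carry PDGFRB. Serum itself contains PDGF released by platelets.

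The libraries held 36839530 to 44724759 reads in genes. Expression is given as CPM, a gene's share of a library's reads after correction with TMM factors (trimmed mean of M-values), and averages carry the SD of n = 2 libraries. The targeted gene Phf8 stood at 44.3 and 42.3 CPM in Phf8 shRNA libraries and at 53.3 and 53.0 CPM in control shRNA libraries, which is 18.5% less transcript. Of 21042 genes tested, 52.1% were called (Benjamini-Hochberg adjusted p under 0.05, quasi-likelihood test of edgeR), 24.8% higher and 27.3% lower with Phf8 shRNA. Higher genes were 47.7% of the calls, and 58.0% of them with upper-quartile scaling. The study design speaks of biological replicates and names no separate cultures, so p-values reflect the spread among these 4 samples alone, and that spread may be technical. All 7 PDGF genes passed the low-count filter, Pdgfb through its control libraries alone. Among scarce genes named below, Plau, Kcnj8, Abcc9, Slco1a4, Lbp, Atf7ip2 and Col6a2 passed in the same way, which favours a lower value with Phf8 shRNA. In all 7 PDGF genes the libraries of both groups did not overlap, as in 73.9% of all genes tested. All 7 were also among the calls, 3 higher and 4 lower, beside the 52.1% over all genes and 60.4% over protein-coding genes, and nothing is read from either count because the contrast chose them. In these bulk samples, fewer cells of a type and less RNA per cell cannot be told apart.

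**Figure D1:**
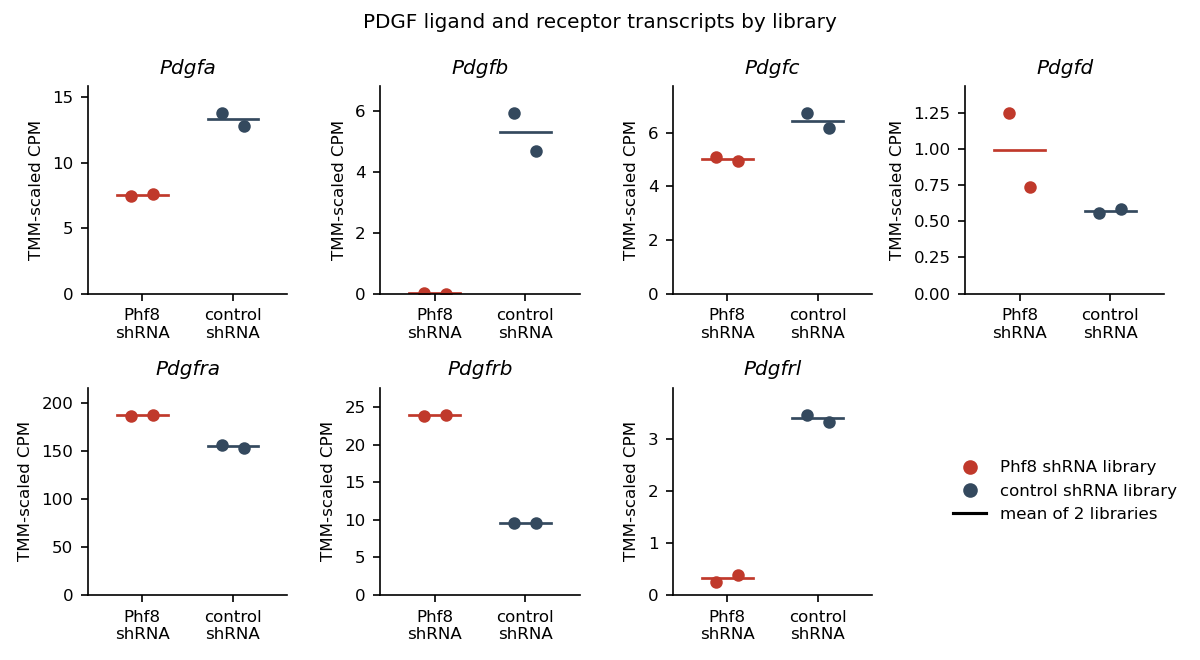
TMM-scaled CPM of the 7 PDGF genes in each Phf8 shRNA (red) and control shRNA (dark) library, with a line at the mean of 2 libraries and each axis starting at 0. Pdgfb and Pdgfrl lie near 0 with Phf8 shRNA, Pdgfrb is higher in both Phf8 shRNA libraries, and Pdgfd is the gene whose Phf8 shRNA libraries lie farthest apart relative to their mean among those with reads in all 4 libraries.

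Among the ligands, Pdgfb transcript was almost absent after Phf8 knockdown. Pdgfb (ENSMUSG00000000489, minus strand of chromosome 15, 79995874 to 80014977, mm10) encodes PDGF-B, the chain that binds both receptors. It had 1 and 0 reads in Phf8 shRNA libraries, against 256 and 191 reads in control shRNA libraries. Scaled to depth, these were 0.0231 and 0 CPM with Phf8 shRNA and 5.92 and 4.67 CPM with control shRNA. Both Phf8 shRNA libraries were below what 3 reads would give (0.0694 and 0.0817 CPM), while the control libraries differed 1.27-fold between themselves. The depth-adjusted ratio of Phf8 shRNA to control reads was 0.00236, with a 95% exact binomial interval of 5.95e-05 to 0.0132 that covers counting error only. The fitted log2 fold change was -8.41 ± 0.40 (SE), a value that depends on the prior count, and 1 of the 21042 genes tested had a lower one. No exon of Pdgfb overlapped that of another gene in the GENCODE M21 annotation, and none of its 50-base transcript windows occurred in another gene.

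Pdgfa, the ligand of oligodendrocyte precursors, was lower by a smaller amount. Pdgfa (ENSMUSG00000025856, minus strand of chromosome 5, 138976014 to 138997370) had 7.42 and 7.60 CPM in Phf8 shRNA libraries, against 13.8 and 12.8 CPM in control shRNA libraries. The pairs of libraries were tight and apart, and the log2 fold change was -0.83 ± 0.09 (SE), or 43.6% less. Over 26.1% of its exonic length Pdgfa overlaps 6330403L08Rik, a gene on the opposite strand, and the sources used here do not say whether the counting used strand. That gene was at 5.39 and 5.64 CPM with Phf8 shRNA and at 5.18 and 4.82 CPM with control shRNA, and was not called (log2 fold change 0.14 ± 0.12 SE, Benjamini-Hochberg adjusted p = 0.351, quasi-likelihood test of edgeR).

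Promoter windows, 250 bases before to 50 after a RefSeq start (GRCm38.p6), were at hand for 4 of the 7 genes and are shown for a lower ligand, a higher ligand and the most abundant receptor, with each CG dinucleotide in capitals. The Pdgfa window at chr5:138994895-138995194 (minus strand) also holds the start of 6330403L08Rik at 138995056.
Pdgfa: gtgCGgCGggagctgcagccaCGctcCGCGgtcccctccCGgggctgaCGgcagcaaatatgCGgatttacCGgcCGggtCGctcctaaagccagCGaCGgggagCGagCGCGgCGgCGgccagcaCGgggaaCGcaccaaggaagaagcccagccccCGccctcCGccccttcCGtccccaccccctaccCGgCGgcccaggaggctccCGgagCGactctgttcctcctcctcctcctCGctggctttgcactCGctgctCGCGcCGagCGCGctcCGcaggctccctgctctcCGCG
Pdgfd, chr9:6168236-6168535 (plus strand): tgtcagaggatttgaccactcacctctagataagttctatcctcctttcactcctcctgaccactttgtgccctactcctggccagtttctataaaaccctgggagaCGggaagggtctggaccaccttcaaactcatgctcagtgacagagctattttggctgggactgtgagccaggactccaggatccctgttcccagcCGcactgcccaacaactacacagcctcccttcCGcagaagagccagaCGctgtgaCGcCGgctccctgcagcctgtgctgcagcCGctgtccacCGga
Pdgfra, chr5:75152001-75152300 (plus strand): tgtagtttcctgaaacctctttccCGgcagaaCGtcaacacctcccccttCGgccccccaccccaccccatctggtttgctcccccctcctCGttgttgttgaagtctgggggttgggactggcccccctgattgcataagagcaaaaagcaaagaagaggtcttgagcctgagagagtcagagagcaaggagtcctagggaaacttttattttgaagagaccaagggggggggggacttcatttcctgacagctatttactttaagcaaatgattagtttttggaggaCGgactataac
The windows differ in CpG content. The Pdgfa window is 73.3% G and C and has 37 CG dinucleotides, a number reached by 5.58% of 32851 RefSeq promoter windows. A second Pdgfa window at chr5:138994232-138994531 has 24, reached by 20.0%. Pdgfd and Pdgfc (chr3:81036166-81036465) have 8 each, reached by 48.6%, and Pdgfra has 5, reached by 62.0%. The GC box GGGCGG, which itself contains a CG, was searched on both strands and occurs 2 times in the first and 1 time in the second Pdgfa window and in none of the windows of Pdgfc, Pdgfd and Pdgfra, against 35.7% of all windows. TATAAA is present in the Pdgfd window alone among these 5, against 13.6% of all windows, and the AP-1 motif TGANTCA in none of the 5, against 7.81%. Such matches describe the letters of these windows.

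Pdgfc and Pdgfd, the ligands with a CUB domain, differed less or were scarce. Pdgfc (ENSMUSG00000028019, plus strand of chromosome 3, 81036416 to 81214040) had 5.09 and 4.93 CPM in Phf8 shRNA libraries, against 6.73 and 6.16 CPM in control shRNA libraries. It was a little lower with Phf8 shRNA, with a log2 fold change of -0.36 ± 0.12 (SE). Pdgfd (ENSMUSG00000032006, plus strand of chromosome 9, 6168584 to 6378850) had 54 and 27 reads in Phf8 shRNA libraries, against 24 and 24 reads in control shRNA libraries. At 1.249 and 0.736 CPM with Phf8 shRNA and 0.555 and 0.587 CPM with control shRNA, it was the one ligand that was higher, and replicate 1 of Phf8 shRNA stood 1.70-fold above replicate 2. Its log2 fold change was 0.82 ± 0.29 (SE), and 0.37 when Phf8 shRNA replicate 1 was left out.

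Both receptors with a kinase domain were higher after Phf8 knockdown, Pdgfrb more so than Pdgfra. Pdgfrb (ENSMUSG00000024620, plus strand of chromosome 18, 61045150 to 61085061) encodes the receptor for PDGF-B and PDGF-D. It had 1030 and 882 reads in Phf8 shRNA libraries, against 413 and 390 reads in control shRNA libraries, or 23.8 and 24.03 CPM against 9.55 and 9.53 CPM. Libraries of a group were nearly equal, and the log2 fold change was 1.33 ± 0.08 (SE), a 2.51-fold higher level. Of all genes tested, 2.92% had a larger log2 fold change. Pdgfra (ENSMUSG00000029231, plus strand of chromosome 5, 75152292 to 75198215), which encodes the receptor for PDGF-A, PDGF-B and PDGF-C, had 186 and 188 CPM with Phf8 shRNA and 157 and 154 CPM with control shRNA. Its groups were apart by little, with a log2 fold change of 0.27 ± 0.06 (SE), and 28.4% of tested genes had a larger one. Genes on the opposite strand cover 6.21% of the exonic length of Pdgfra, and they had 10 reads in Phf8 shRNA and 4 reads in control shRNA libraries in all.

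Pdgfrl, which encodes a secreted protein related to the extracellular part of PDGF receptors and without a kinase domain, was much lower. Pdgfrl (ENSMUSG00000031595, plus strand of chromosome 8, 40926212 to 40990785) had 11 and 14 reads in Phf8 shRNA libraries, against 150 and 136 reads in control shRNA libraries. These were 0.254 and 0.381 CPM with Phf8 shRNA and 3.47 and 3.32 CPM with control shRNA. The gene was thus scarce in one group and low in the other, with a depth-adjusted ratio of 0.0921 (95% exact binomial interval 0.0586 to 0.139, counting error only). Its log2 fold change was -3.43 ± 0.25 (SE), and 0.898% of tested genes had a lower one.

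**Figure D2:**
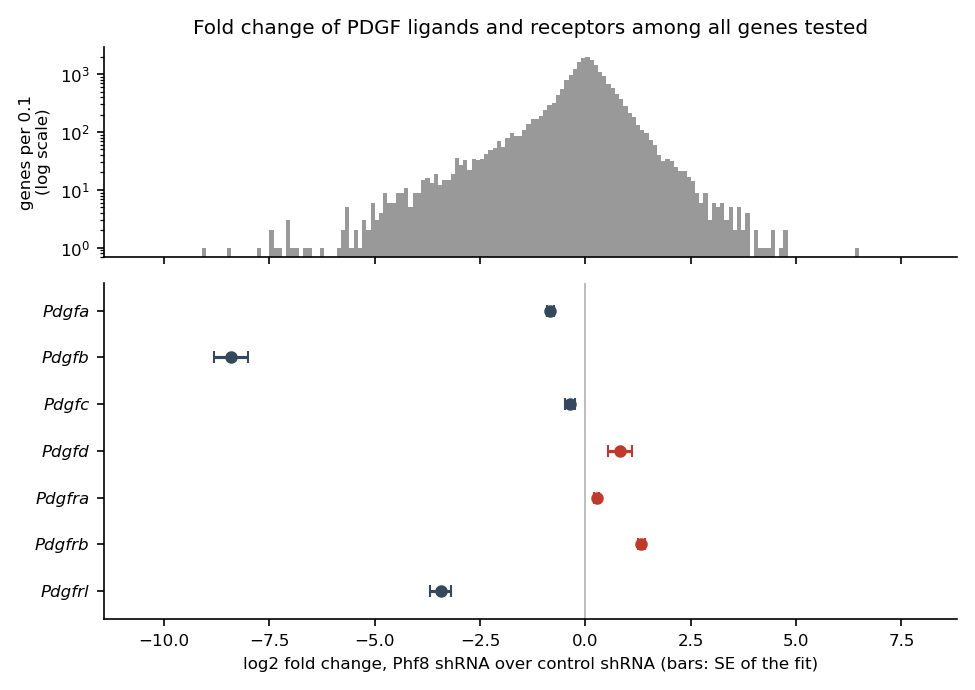
Upper panel, the number of genes per 0.1 of log2 fold change (log scale) over the 21042 genes tested. Lower panel, log2 fold change of the 7 PDGF genes, Phf8 shRNA over control shRNA, with the SE of the fit as bars, red where higher and dark where lower. Pdgfb at -8.41 lies at the far left end of the distribution, Pdgfrl at -3.43 in its left tail, and Pdgfra at 0.27 near its centre.

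Levels of different genes were compared per kilobase of annotated exon. In control shRNA libraries the order was Pdgfra, Pdgfa, Pdgfrb, then Pdgfb, Pdgfc and Pdgfrl close together, and Pdgfd. With Phf8 shRNA it was Pdgfra, Pdgfrb, Pdgfa, Pdgfc, Pdgfd, Pdgfrl and Pdgfb. Pdgfra led in both groups, at 18.7 ± 0.128 CPM per kb with Phf8 shRNA and 15.5 ± 0.205 with control shRNA (SD, n = 2 each), a level above that of 89.5% and 85.2% of the tested protein-coding genes in these groups. Pdgfrb stood at 4.37 ± 0.0267 CPM per kb with Phf8 shRNA, above Pdgfa at 2.41 ± 0.0401, and at 1.74 ± 0.00175 with control shRNA, below Pdgfa at 4.27 ± 0.219. In the control libraries Pdgfb at 1.27 ± 0.212 CPM per kb, Pdgfc at 1.27 ± 0.0788 and Pdgfrl at 1.09 ± 0.0323 did not differ by more than the spread of Pdgfb. With Phf8 shRNA, Pdgfd at 0.315 ± 0.115 CPM per kb stood above Pdgfrl at 0.102 ± 0.0287, which had more than Pdgfb at 0.00278 ± 0.00393.

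Summed over the ligands, transcript per kilobase was lower with Phf8 shRNA, and summed over both kinase receptors it was higher. The 4 ligands added up to 3.78 and 3.64 CPM per kb in Phf8 shRNA libraries, against 7.34 and 6.63 in control shRNA libraries. Pdgfa made up most of the ligand sum in every library, with 62.9% and 67.0% in Phf8 shRNA libraries and 60.2% and 62.0% in control shRNA libraries. The share of Pdgfb was 0.147% and 0% with Phf8 shRNA and 19.4% and 16.9% with control shRNA, and that of Pdgfc was 26.4% and 26.6% against 18.0% and 18.2%. Both receptors added up to 22.9 and 23.1 CPM per kb with Phf8 shRNA and to 17.4 and 17.1 with control shRNA. Pdgfrb was 19.0% and 18.9% of the receptor sum with Phf8 shRNA and 10.0% and 10.2% with control shRNA. Pdgfra thus exceeded Pdgfrb 4.27-fold and 4.28-fold in Phf8 shRNA libraries and 8.96-fold and 8.81-fold in control shRNA libraries. Ratios within a library do not depend on the scaling between libraries.

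**Figure D3:**
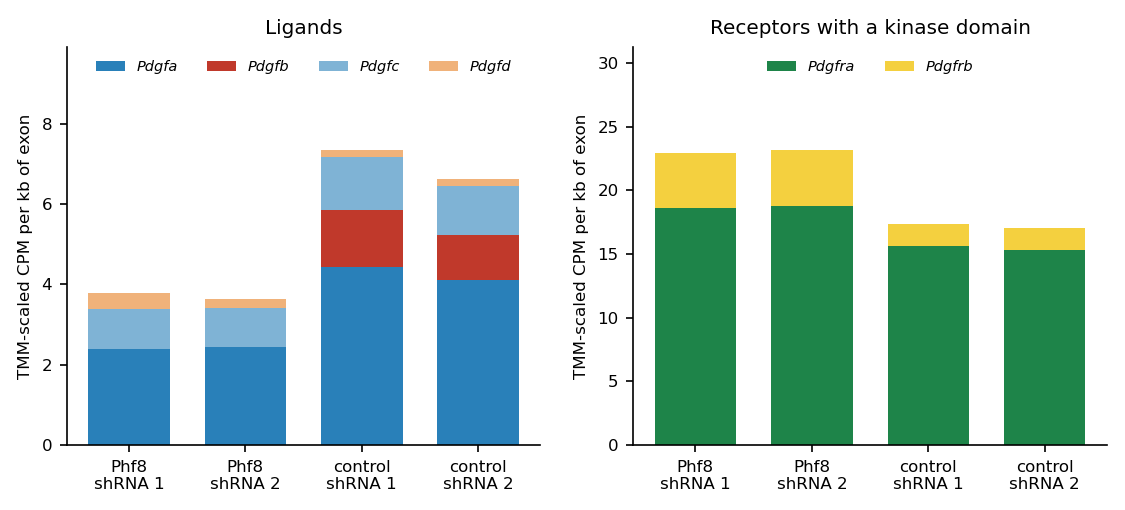
Stacked TMM-scaled CPM per kb of exon of the 4 ligand genes (left) and both kinase receptor genes (right), one bar per library and axes from 0. The ligand bars reach 3.78 and 3.64 with Phf8 shRNA and 7.34 and 6.63 with control shRNA, the Pdgfb layer is not visible with Phf8 shRNA, and the Pdgfrb layer is thicker there.

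The genes on either side of Pdgfb differed little between the groups, and Kit, beside Pdgfra, rose. Downstream of Pdgfb, 24.8 kb away, lies Cbx7, a Polycomb gene, with 10.45 ± 0.332 CPM in Phf8 shRNA and 12.1 ± 0.296 CPM in control shRNA libraries (SD, n = 2 each). It was called lower by little (log2 fold change -0.21 ± 0.09 SE, Benjamini-Hochberg adjusted p = 0.0388, edgeR's quasi-likelihood test), and the call was lost when any 1 of the 4 libraries was left out. On the other side, 62.8 kb away, the ribosomal protein gene Rpl3 was not called (0.10 ± 0.06 SE, adjusted p = 0.117 in the same edgeR test). Next to Pdgfra, 376.7 kb away, lies Kit, a receptor tyrosine kinase gene of the same class, which rose to 81.3 ± 1.06 CPM with Phf8 shRNA, against 63.3 ± 0.436 CPM with control shRNA (0.36 ± 0.06 SE, adjusted p = 9.19e-10, edgeR). The homeobox gene Gsx2 on the other side had 23 and 14 reads in all with Phf8 shRNA and control shRNA and was not tested. Csf1r, a receptor gene of this class 15.5 kb beyond Pdgfrb, had 39 reads with Phf8 shRNA and 28 with control shRNA and was not called (0.56 ± 0.39 SE, adjusted p = 0.23, edgeR), and 15.1% of its exonic length lies opposite Hmgxb3. Cdx1, on its other side, had 0 reads in all 4 libraries.

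The protein-coding genes nearest to Pdgfb in log2 CPM over the 4 libraries were Lbp, Atf7ip2 and Col6a2, with summed absolute differences of 2.92, 2.98 and 3.11 log2 units. They had 2, 5 and 9 reads with Phf8 shRNA and 184, 292 and 478 reads with control shRNA. Those nearest to Pdgfrb were Gm2115, Eepd1 and Rab3c, with summed differences of 0.182, 0.202 and 0.315 and log2 fold changes of 1.29, 1.40 and 1.34. With 4 libraries in 2 groups, such likeness rests on little more than the level in each group.

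Of the genes whose products process or bind PDGFs, 11 of 14 were tested, of which 4 rose and 5 fell (81.8% called, against 52.1% of all and 60.4% of protein-coding genes, median log2 fold change -0.10). A2m, whose product alpha-2-macroglobulin binds PDGF, fell to 219 ± 32.4 CPM with Phf8 shRNA, against 1370.4 ± 1.55 CPM with control shRNA, and Sparc, whose product binds PDGF-B, fell to 224 ± 7.97 CPM against 660.1 ± 4.74 CPM. Plat, which encodes the tissue plasminogen activator that cuts PDGF-C, fell to 196 ± 3.04 CPM with Phf8 shRNA, against 314 ± 4.99 CPM with control shRNA. Pcsk6, which encodes a furin-like convertase, rose to 38.3 ± 1.34 CPM, against 22.0 ± 0.474 CPM. These 4 were the called genes of the list with the smallest p, as are the first 4 named in each list below, so small values follow from the choice. Their largest adjusted p was 1.67e-31 (Benjamini-Hochberg, edgeR's quasi-likelihood test). Named after their values were seen, Furin did not pass (log2 fold change -0.10, adjusted p = 0.167, edgeR), and Plau, which encodes the urokinase that cuts PDGF-D, fell to 13 reads with Phf8 shRNA, against 98 reads with control shRNA.

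Among receptors and ligands related to the PDGF system, 12 of 15 were tested, of which 2 rose and 4 fell (6 of 12 called, a share near the 52.1% over all genes, median -0.24). Kitl, the ligand of Kit, fell to 49.5 ± 1.09 CPM with Phf8 shRNA, against 204.7 ± 1.11 CPM with control shRNA. Kdr, a receptor of vascular endothelial growth factor, fell to 0.465 ± 0.0360 CPM against 4.49 ± 0.00938 CPM. Csf1, a ligand of Csf1r, fell with a log2 fold change of -0.74 ± 0.06 (SE), and Pgf, a growth factor of the same fold as the PDGFs, fell to 5.07 ± 1.36 CPM against 9.23 ± 1.13 CPM. The largest adjusted p of these 4 was 2.03e-14 in edgeR's quasi-likelihood test. The other called members were Kit and Vegfb, which rose.

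Effectors of the receptors moved in both directions. All 35 were tested, 12 rose, 13 fell and 10 did not pass (71.4% called, against 52.1% of all and 60.4% of protein-coding genes, median 0.00). Pik3r1, the regulatory subunit of phosphatidylinositol 3-kinase that docks on the receptors, rose to 595 ± 0.631 CPM with Phf8 shRNA, against 298 ± 0.171 CPM with control shRNA. The Src family kinase gene Fyn rose 1.66-fold and the phospholipase gene Plcg1 1.53-fold, while the adaptor gene Nck2 fell with a log2 fold change of -0.65 ± 0.06 (SE). The largest adjusted p of these 4 was 2.5e-24 (edgeR's quasi-likelihood test). Under upper-quartile scaling, 16 rose and 11 fell, and with the library size alone 8 rose and 16 fell.

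Of 19 negative regulators of receptor signalling, all tested, 5 rose and 8 fell (68.4% called, against 52.1% of all and 60.4% of protein-coding genes, median -0.12). Socs3, a suppressor of cytokine signalling, fell to 7.73 ± 0.999 CPM with Phf8 shRNA, against 33.1 ± 0.358 CPM with control shRNA. Dusp5, a phosphatase of the kinase ERK, fell to 2.18 ± 0.349 CPM against 9.93 ± 0.0227 CPM, and the Ras pathway inhibitor gene Spry4 fell to 5.58 ± 0.151 CPM against 10.5 ± 0.130 CPM. Spry2, of the same family, rose to 77.3 ± 0.0457 CPM against 46.2 ± 1.301 CPM. The largest adjusted p of these 4 was 5.76e-18 (edgeR's quasi-likelihood test). Under upper-quartile scaling, 8 rose and 6 fell.

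Genes known to be induced by PDGF or serum, mostly from mouse fibroblasts, were lower or not called. As with the other lists, this one was written with earlier results of these data known, so its shares are a description. Of 26 listed genes 22 were tested, 0 rose, 16 fell and 6 did not pass. That is 72.7% lower against 27.3% of all genes, with a median of -0.68 against 0.01 over all genes. At least 2-fold lower were 8 of the 22 (36.4%, against 8.71% of all genes). With upper-quartile scaling 1 rose and 15 fell, and with the library size alone 0 rose and 17 fell. Ccn1, which encodes a matrix-associated signalling protein, fell to 5.49 ± 0.215 CPM with Phf8 shRNA, against 48.9 ± 1.26 CPM with control shRNA. The zinc finger gene Klf6 fell to 35.2 ± 1.14 CPM against 118 ± 1.92 CPM, and Hbegf, a ligand of the EGF receptor, to 11.5 ± 1.10 CPM against 34.4 ± 0.369 CPM. Fos, of the AP-1 transcription factor, fell to 68.0 ± 16.9 CPM against 148 ± 2.47 CPM, with Phf8 shRNA libraries of 80.0 and 56.1 CPM. The largest adjusted p of these 4 was 1.45e-84 in edgeR's quasi-likelihood test. Egr1, Dusp1 and Ccl2, known PDGF-induced genes named after their values were seen, did not pass (log2 fold changes -0.14, 0.08 and -0.01). Many genes of this list also respond to other stimuli, and PDGF signalling was not measured.

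**Figure D4:**
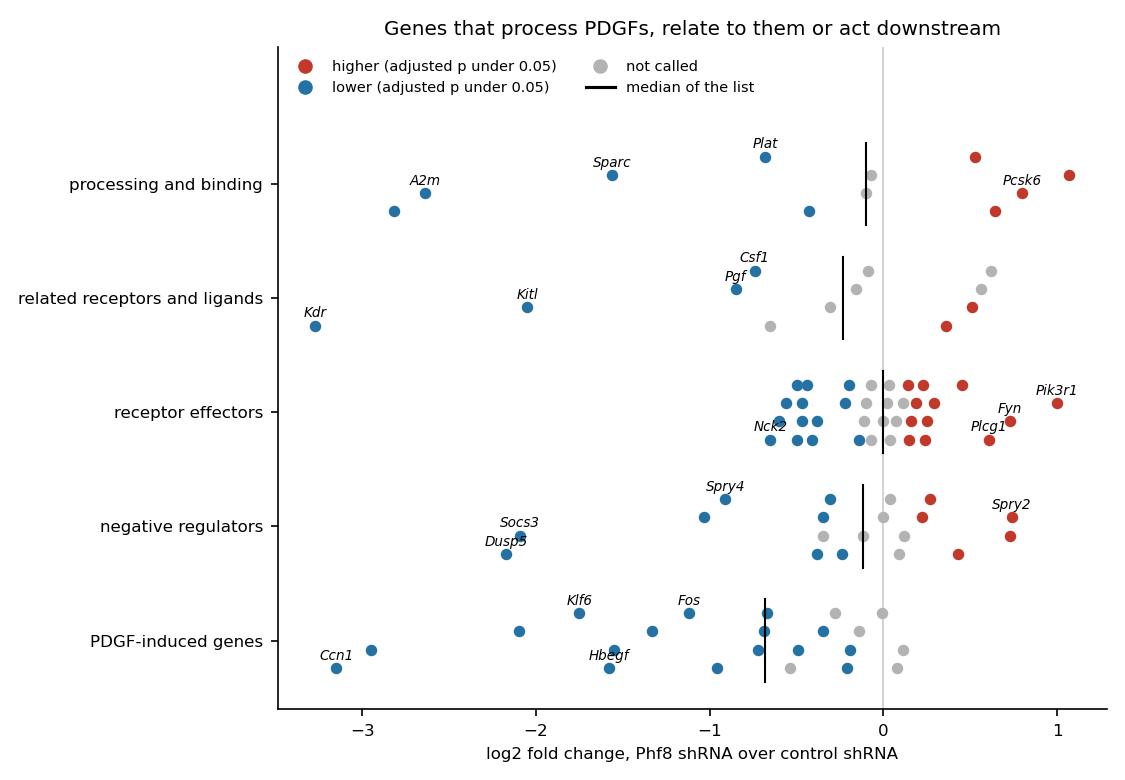
Log2 fold change, Phf8 shRNA over control shRNA, of every tested gene of the 5 lists, red where called higher, blue where called lower and grey where not called, with a black line at the list's median and vertical offsets for legibility only. The PDGF-induced genes have a median of -0.68 and no red point, whereas the receptor effectors centre on 0.

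These 5 lists were counted under a larger spread as well. With a biological coefficient of variation set to 0.2 in place of the estimated 3.64%, the calls numbered 5 in the processing and binding list, 3 among related receptors and ligands, 1 among effectors, 4 among negative regulators and 8 among the PDGF-induced genes (edgeR's likelihood ratio test), and 3305 of the 21042 genes tested. Plat, Csf1, Fyn, Plcg1, Nck2, Spry2, Kit, Cbx7 and Phf8 lost their calls there.

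Markers of astrocytes were present in both groups, with all 14 at 1 CPM or more. They moved in both directions, as 6 rose, 7 fell and 1 did not pass. Of these markers 92.9% were called, against 52.1% of all and 60.4% of protein-coding genes. The summed level of the astrocyte markers was 8204 and 7389 CPM in Phf8 shRNA libraries, against 10640 and 10370 CPM in control shRNA libraries. Gfap, a filament protein gene, fell to 1172 ± 208 CPM with Phf8 shRNA, against 3971 ± 152 CPM with control shRNA. By library, Gfap had 1319 and 1024 CPM against 4079 and 3863 CPM, a difference about as large as that of the sum. The glutamate transporter gene Slc1a2 rose to 975 ± 9.64 CPM against 135 ± 0.284 CPM, and the glutamine synthetase gene Glul to 622 ± 19.5 CPM against 281 ± 3.16 CPM. Markers of cells that carry PDGF receptors were counted beside the receptors. In the list of oligodendrocyte lineage markers 13 of 14 rose and 0 fell (92.9% higher, against 24.8% of all genes), with a median of 1.22. Their summed level was 1229 and 1171 CPM in Phf8 shRNA libraries, against 677 and 633 CPM in control shRNA libraries. Pdgfra, with 0.27, and the precursor marker Cspg4, with 0.07 and no call, lay below that median. The summed level of 14 mural markers was 215.5 and 209 CPM with Phf8 shRNA and 130.2 and 116 CPM with control shRNA, most of it Notch3 and Cspg4, which other cells express too. Of 9 mural markers tested, 1 rose, 4 fell and 4 did not pass (11.1% higher and 44.4% lower, against 24.8% and 27.3% of all genes). Notch3, the one that rose, reached 163 ± 8.29 CPM with Phf8 shRNA, against 62.7 ± 6.44 CPM with control shRNA. The 4 that fell were Rgs5, Kcnj8, Abcc9 and Acta2, and Cspg4, Higd1b, Tagln and Myh11 did not pass. The pericyte markers Rgs5, Kcnj8 and Abcc9 had 41, 4 and 6 reads with Phf8 shRNA and 224, 132 and 35 reads with control shRNA. Higd1b, of the same list, had 32 against 36 reads. Anpep, Vtn, Ndufa4l2, Cox4i2 and Des were too scarce to be tested. The first 4 of them had 1, 3, 19 and 3 reads with Phf8 shRNA and 3, 6, 15 and 11 reads with control shRNA. Acta2 of smooth muscle had 34 reads with Phf8 shRNA, against 743 reads with control shRNA, and Des had 0 against 3.

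Endothelial markers, of the cells known for PDGF-B, summed to 2.24 and 2.125 CPM in Phf8 shRNA libraries and to 7.19 and 7.21 CPM in control shRNA libraries, of which Kdr was 0.439 and 0.490 CPM with Phf8 shRNA and 4.48 and 4.498 CPM with control shRNA. Of 6 tested, 0 rose and 2 fell, which is 33.3% lower, near the 27.3% of all genes. Lower were Kdr and the transporter gene Slco1a4. Slco1a4 had 2 reads with Phf8 shRNA and 63 reads with control shRNA, and passed the low-count filter through its control libraries alone. Pecam1, Flt1, Tek and Esam were not called (log2 fold changes 1.12, 0.62, -0.56 and -0.56). Cdh5 and Ly6c1, defining markers of that type, had 0 reads in all 4 libraries, and Cldn5 had 0 with Phf8 shRNA and 1 with control shRNA. Microglial markers summed to 13.1 and 14.3 CPM with Phf8 shRNA and to 17.5 and 17.4 CPM with control shRNA. Of 5 tested, 0 were higher and 2 lower (40.0%, against 27.3% of all genes), and 1 of these, Adgre1, passed the filter through its control libraries alone. C1qa, C1qb and Trem2 had 0 reads throughout. Fibroblast markers summed to 6.499 and 6.24 CPM with Phf8 shRNA and to 8.715 and 9.29 CPM with control shRNA. Of 4 tested, 1 was higher and 2 were lower, beside 24.8% and 27.3% of all genes. The higher one, Col6a3, had 25 reads with Phf8 shRNA and 6 with control shRNA. It passed the filter through its Phf8 shRNA libraries alone, which favours a higher value there. Of the lower ones, Fbln1 had 445 against 660 reads. Mfap5 had 12 against 36 reads and passed through its control libraries alone. Dcn and Lum had 1 read each with Phf8 shRNA and 0 with control shRNA. Neuronal markers, of which 8 of 9 tested rose and 0 fell (88.9% higher, against 24.8% of all genes), summed to 1927 and 1922 CPM with Phf8 shRNA and to 1172 and 1212 CPM with control shRNA. Most of these sums was Map2, with 1390 and 1379 CPM against 902 and 936 CPM. Stmn2, Gad2, Slc17a7, Slc17a6 and Nefl of this list were too scarce to be tested. They had 17, 18, 7, 0 and 20 reads with Phf8 shRNA and 15, 10, 0, 2 and 13 reads with control shRNA. The part of these cell types in the levels of the PDGF genes was not tested.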

How the data were processed

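RNA of 4 libraries of mouse astrocytes, 2 with Phf8 shRNA and 2 with control shRNA, was analysed from the deposited counts of reads per gene (whole numbers that the authors did not normalize, as totals differ between libraries). The submitters' processing notes name HISAT2, HTSeq, DESeq2 and the mm10 build. The sources used here give no versions, strand setting or annotation release. Symbols were found for 55154 of 55421 identifiers, and the rest held 0.00525% of reads. GENCODE M21 gave exon lengths, overlaps and neighbours, and RefSeq (GRCm38.p6) the promoter windows.

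Counts were filtered with filterByExpr, scaled by TMM and tested over all genes with edgeR 4.0.16 in R 4.3.3 (quasi-likelihood F test, two-sided, no covariates, Benjamini-Hochberg adjusted p under 0.05). The fit was also run on simulated counts, which took their spread from these 4 libraries and so cannot judge that spread. Standard errors were derived as the absolute log2 fold change over the square root of F. CPM per kb is TMM-scaled CPM over the length of merged exons. TMM assumes that most genes do not differ, so balances of higher and lower genes depend on it. The members and lists were chosen with earlier results of these data known. Named were the 7 PDGF genes, Phf8, the 4 called genes of each list with the smallest p, the adjoining protein-coding genes of Pdgfb, Pdgfra and Pdgfrb, and the 3 tested protein-coding genes closest to Pdgfb and to Pdgfrb in log2 CPM (prior count 2). Alternatives were DESeq2's size factors, upper-quartile scaling, library size alone, DESeq2 1.42.0 and limma-voom (limma 3.58.1), no low-count filter, a mean of at least 1 CPM, a replicate block, leaving out each library, removing mitochondrial genes with the 20 most abundant ones, and a biological coefficient of variation of 0.2.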

Additional observations from a re-analysis of the deposited data

How the results depend on the processing

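Over 14 alternatives none of the 38 genes recomputed singly (the PDGF genes, Phf8, the 4 leading genes of each list, the tested neighbours and the genes nearest to Pdgfb and Pdgfrb) changed direction where called. Other genes named in the text, such as Dusp1, Ccl2 and the cell type markers, were not recomputed singly. With a biological coefficient of variation of 0.2, calls numbered 3305 over all genes, 5 in the processing and binding list, 3 among related receptors and ligands, 1 among effectors, 4 among negative regulators and 8 among PDGF-induced genes. Under the other alternatives each of these counts stayed within 1.5 times. Log2 fold changes ran from -0.88 to -0.75 for Pdgfa, -10.74 to -7.67 for Pdgfb, -0.42 to -0.28 for Pdgfc, 0.37 to 1.13 for Pdgfd, 0.22 to 0.35 for Pdgfra, 1.27 to 1.41 for Pdgfrb and -3.72 to -3.14 for Pdgfrl. Those of Pdgfb at both ends came from leaving out a Phf8 shRNA library, -10.74 against the library with 0 reads and -7.67 against the one with 1. As the contrast chose the PDGF genes, nothing is read from calls among them. Among alternatives that kept every library, Pdgfc and Pdgfd were no longer called with DESeq2's test or with the set spread, nor was Pdgfra with the set spread. Pdgfc had -0.31 without control shRNA replicate 1. Pdgfd had 0.37 without Phf8 shRNA replicate 1. The mean filter of 1 CPM removed Pdgfd. Rpl3 was called with upper-quartile scaling (0.18), the 1 CPM filter (0.11) and without Phf8 shRNA replicate 2 (0.18). Leaving out 1 library gave 9053 to 10235 calls over all genes. The replicate numbers pair nothing in the labels, and same-numbered libraries did not deviate together (r = -0.00102 across genes). With the replicate block there were 10929 calls over all genes, where 2 pairs are too few to judge pairing. Depth limits Pdgfb and Pdgfrl with Phf8 shRNA and Pdgfd in all libraries.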
